A study of Mus musculus with 10 samples.

Results

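The insulin-like growth factor (IGF) axis was followed through 10 genes, taken by symbol from a table of 39769 genes: the ligands Igf1 and Igf2, the receptors Igf1r and Igf2r, the binding proteins Igfbp2, Igfbp3, Igfbp4, Igfbp5 and Igfbp7, and the RNA-binding protein gene Igf2bp3. All 10 symbols were found, and 9 passed the filter on low counts. The exception was Igf2bp3. RNA had been sequenced from 10 mouse libraries, and every mouse carried the Ptch+/- genotype, which leaves 1 working copy of Ptch1, the receptor that holds Sonic hedgehog signalling in check. The Ptch group held 4 libraries of cerebellum labelled as controls, aged 4 months (replicates 1 and 2, written Ptch 1 and so on below) or 2 months (replicates 3 and 4). The NKP group held 3 libraries of medulloblastoma, a tumour of the cerebellum, from mice with the added alleles Nestin-Cre and Kmt2dfl/+, all at 4 months. The AKP group held 3 libraries of medulloblastoma with AtohI-Cre and Kmt2dfl/+, of which replicates 1 and 2 were aged 2 months and replicate 3 was aged 4 months. The series' design text calls the tumour samples cerebella that carry the tumour, so they may hold other cerebellar tissue. Nestin-Cre acts in neural progenitors and Atoh1-Cre in the granule neuron lineage, so 1 copy of Kmt2d is floxed in every cell but removed only where Cre acts. The question was how losing 1 copy of Kmt2d alters expression where Ptch heterozygous mice form tumours. In both comparisons with Ptch the Kmt2d allele, the Cre and the tissue label change together, so their parts cannot be told apart.

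IGF1 and IGF2 are small secreted proteins that bind the tyrosine kinase receptor IGF1R, which signals through insulin receptor substrates to the PI3K, AKT and mTOR pathway. IGF2R carries no kinase and takes IGF2 into lysosomes, and the IGF-binding proteins hold the ligands outside the cell and set how much reaches the receptor. Igf2 is an imprinted gene, and in the brain it is made mainly by meninges, choroid plexus and vessels. It is also known as a gene needed for medulloblastoma to form in Ptch heterozygous mice.

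Library totals ran from 12300430 to 19348991 counts, and 1 count corresponded to 0.0509 to 0.0822 CPM, that is, counts scaled to a common library total. Kmt2d was at 52.6 to 68.4 CPM in the Ptch libraries, at 34.3 to 43.6 CPM in AKP and, in NKP, at 33.2 CPM (NKP 1), 46.9 CPM (NKP 2) and 58.0 CPM (NKP 3). The last of these is inside the range of the Ptch libraries, and NKP 3 stands for the library so labelled throughout. Which exons are floxed is not given, so these totals check the labels only in part. In 4 of 10 libraries (Ptch 1, Ptch 3, NKP 3 and AKP 3) the Y-linked genes did not match the sex given. The summed level of 12 mitosis genes was 6.8 and 9.4 CPM in NKP 2 and NKP 1, 7.4 CPM in AKP 1 and 51.1 CPM in NKP 3. It was 189 and 236 CPM in AKP 3 and AKP 2, 113 and 122 CPM in Ptch 4 and Ptch 3, and 368 and 373 CPM in Ptch 2 and Ptch 1. The 2 highest mitosis sums were thus in Ptch libraries, and the 4 lowest in libraries labelled tumour. Atoh1, a defining gene of the granule neuron precursors from which this tumour type grows, had 0 counts in NKP 1 and AKP 1. NKP 2 held both Y-linked RNA (68.4 CPM summed) and Xist, the RNA of the inactive X chromosome (74.8 CPM). The labels of several libraries are therefore in doubt, and whether any were exchanged was not tested. The groups below are the labelled ones, and a tumour library is one so labelled. Whether replicates of a group are separate mice is not stated, so the spread behind each p-value may be technical. The count difference between 2 libraries of a group was measured as chi-square per degree of freedom. It was 3.39 for Ptch 1 and Ptch 2 and 3.21 for Ptch 3 and Ptch 4, but 24.8 to 26.9 across these pairs. Within NKP and AKP it ran from 8.29 to 35.8. The 4 Ptch libraries may therefore not be 4 independent units, although each SD and test below counts them so.

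None of the 9 tested genes of the axis passed an adjusted p of 0.05 by edgeR in any of the 3 comparisons. In NKP against Ptch 4 of 9 had an unadjusted p below 0.05, and DESeq2 called 0. Over all 15617 genes tested, edgeR called 0% in that comparison, and 17% had an unadjusted p below 0.05. DESeq2 called 2.65% of the 15444 genes to which it gave an adjusted p. Of the 9 genes, 4 had an unadjusted p below 0.05 in AKP against Ptch, and DESeq2 called 3 (Igf1r, Igf2r and Igfbp7). Over all genes, edgeR called 5.68% in that comparison, 25.1% had an unadjusted p below 0.05, and DESeq2 called 15.1% of 12307. In AKP against NKP 2 of 9 had an unadjusted p below 0.05, while edgeR called 0.0064% of all genes and 16.9% had an unadjusted p below 0.05. DESeq2 gave an adjusted p to only 3 of the 9 in AKP against NKP and called 1 (Igfbp5), beside 9.6% of 2438 genes. The median log2 fold change of the 9 genes was 0.05, 0.04 and 0.00 in the 3 comparisons, and that of all genes 0.01, -0.02 and -0.01.

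The genes that came closest to the threshold in AKP against Ptch were the binding protein gene Igfbp7 and the receptor genes Igf1r and Igf2r. The AKP and Ptch libraries did not overlap in any of the 3, as in 24.8% of all genes tested. Their promoters are shown as the 250 bases before the transcription start (RefSeq, GRCm38.p6), 5′ to 3′ on the gene's strand. Capitals mark GC boxes, the 6-letter motif GGGCGG or its reverse complement CCGCCC, which the general activator SP1 can bind.
Igfbp7, chr5:77408046-77408295, minus strand: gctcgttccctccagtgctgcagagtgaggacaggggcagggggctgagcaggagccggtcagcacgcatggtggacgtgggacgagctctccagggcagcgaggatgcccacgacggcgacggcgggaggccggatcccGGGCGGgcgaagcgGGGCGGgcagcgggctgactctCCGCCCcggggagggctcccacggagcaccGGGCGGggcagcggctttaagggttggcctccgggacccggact
Igf1r, chr7:67952007-67952256, plus strand: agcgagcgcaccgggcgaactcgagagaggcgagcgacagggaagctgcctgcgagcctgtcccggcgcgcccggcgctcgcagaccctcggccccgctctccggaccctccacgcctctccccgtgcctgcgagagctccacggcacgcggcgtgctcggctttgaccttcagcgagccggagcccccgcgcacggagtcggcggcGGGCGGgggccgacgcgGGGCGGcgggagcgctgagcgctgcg
Igf2r, chr17:12769707-12769956, minus strand: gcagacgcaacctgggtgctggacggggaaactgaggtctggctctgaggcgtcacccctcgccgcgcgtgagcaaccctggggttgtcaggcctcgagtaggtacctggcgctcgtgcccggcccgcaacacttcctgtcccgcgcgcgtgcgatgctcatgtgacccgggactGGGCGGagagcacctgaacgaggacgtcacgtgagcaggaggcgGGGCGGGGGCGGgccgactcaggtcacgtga

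These 3 windows held 4, 2 and 3 GC boxes, the last run of capitals in Igf2r being 2 boxes end to end, with a GC content of 74%, 77.6% and 69.2% and 26, 42 and 27 CpG dinucleotides. Over the 32851 promoters of the RefSeq table, 32.7% held a GC box in the same window, with a median GC content of 52.4% and a median of 6 CpG dinucleotides. RefSeq lists 14 promoters for the 10 genes, 4 of them for Igf2 and 2 for Igfbp2, and 6 of the 14 held a GC box. None of the 14 held GACCACCCA or its reverse complement TGGGTGGTC, the consensus of the hedgehog-regulated GLI factors, which 0.225% of all promoters held. Absence says only that these letters are not in these windows.

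Across genes, levels were set per kilobase (kb) of exon, since longer transcripts give more counts. Igfbp2 was the most abundant at 57.1 ± 13.7 CPM per kb (SD, n = 10 libraries), followed by Igf2 at 30.4 ± 3.98, Igfbp5 at 25.2 ± 6.59 and Igfbp7 at 21.2 ± 3.43 CPM per kb. Igfbp2 lay above Igf2 in 10 of 10 libraries, but Igf2 lay above Igfbp5 in only 7 and Igfbp5 above Igfbp7 in 8, so the order of these last 3 varied between libraries. Igfbp3 (6.41 ± 0.666 CPM per kb) and Igfbp4 (5.15 ± 0.781) formed a lower pair whose ranges overlapped, although Igfbp3 was above Igfbp4 in 10 of 10 libraries. The receptors were lower still, Igf2r at 2.85 ± 0.406 and Igf1r at 2.09 ± 0.328 CPM per kb, also with overlapping ranges and the same order in each library. Igf1, the ligand known from microglia and from some neurons in brain, was at 0.705 ± 0.0838 CPM per kb, so Igf2 was the more abundant ligand transcript in every library. Exon lengths are those of GENCODE vM21 with all annotated exons joined, and a gene that uses only some of its exons would read too low on this scale.

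**Figure D1:**
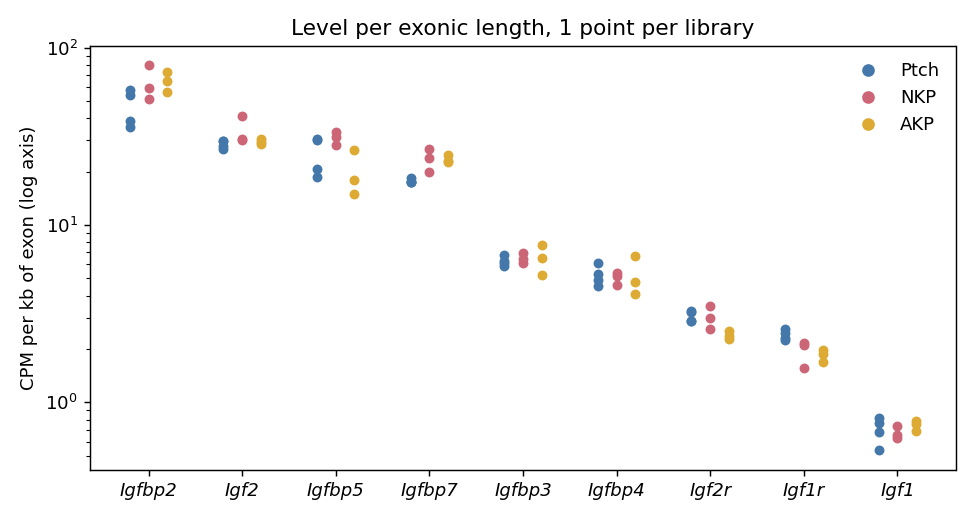
Levels of the 9 tested genes in CPM per kb of exon on a log axis, 1 point per library, coloured by group and ordered by the mean. Igfbp2, Igf2, Igfbp5 and Igfbp7 lie between 15 and 79.7 CPM per kb and Igf1 below 1 in each library.

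Among the ligands, Igf2 (chromosome 7, 142650766 to 142666816, minus strand, GRCm38) was at 170, 171, 153 and 160 CPM in Ptch 1 to 4. The NKP libraries 1 to 3 had 172, 236 and 175 CPM, and the AKP libraries 1 to 3 had 168, 163 and 174 CPM. A single library, NKP 2, stood above the rest, and the other 9 lay between 153 and 175 CPM. The NKP libraries did not overlap with the Ptch libraries, as in 15.9% of all genes tested, but NKP 1 lay only just above Ptch 2. The log2 fold change of Igf2 was 0.25 in NKP against Ptch (SE 0.108, 95% interval 0.02 to 0.48, edgeR adjusted p = 0.268), and 0.09 without NKP 2 (adjusted p = 0.730). In AKP against Ptch it was 0.04 (95% interval -0.19 to 0.28). Between the tumour groups it was -0.21 for AKP against NKP (95% interval -0.46 to 0.04, adjusted p = 0.370).

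NKP 2 also had the highest sums of meningeal and choroid plexus markers. The 10 meningeal and fibroblast genes summed to 234 CPM in NKP 2, against 155 and 146 in NKP 1 and NKP 3, 152 to 166 in AKP and 125 to 139 in Ptch. The 10 choroid plexus genes summed to 4110 CPM in NKP 2, 1740 and 3020 in NKP 1 and NKP 3, 1990 to 2450 in AKP and 1990 to 2880 in Ptch. No gene of either list was at 0 counts in any library. Their part in the Igf2 level was not tested, and in bulk tissue a change in the number of cells of a type cannot be told apart from a change in RNA per cell. The exons of Igf2 overlap those of the antisense gene Igf2os and share 3596 bases with the protein-coding gene model Gm49394. The library kit does not mark strand, so some reads could belong to Igf2os. Gm49394 lies on the same strand as Igf2, so strand would not separate reads of the shared bases, and it has no entry of its own among the 39769 genes.

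Igf1 (chromosome 10, 87858265 to 87937042) was at 5.31 to 8.04 CPM in Ptch, 6.21 to 7.30 in NKP and 6.85 to 7.81 in AKP, from 69 to 158 counts per library. The groups overlapped in each comparison. Its log2 fold change was -0.06 (95% interval -0.45 to 0.33) in NKP against Ptch, 0.09 (-0.30 to 0.48) in AKP against Ptch and 0.15 (-0.27 to 0.57) in AKP against NKP. These libraries leave any shift inside these intervals possible.

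The receptor gene Igf1r (chromosome 7, 67952827 to 68233668) was lower in each tumour library than in each Ptch library. It was at 41.2, 38.5, 37.7 and 43.5 CPM in Ptch 1 to 4, at 26.1, 35.4 and 36.4 CPM in the NKP libraries 1 to 3 and at 28.4, 33.1 and 31.3 CPM in the AKP libraries 1 to 3. NKP 1 was the lowest library, and NKP 3, the highest of the tumour libraries, lay just under the lowest Ptch library. Taken alone, NKP and Ptch did not overlap in 15.9% of all genes tested, and AKP and Ptch in 24.8%. The log2 fold change was -0.30 in NKP against Ptch (SE 0.120, 95% interval -0.56 to -0.04, edgeR adjusted p = 0.245). In AKP against Ptch it was -0.38 (SE 0.121, 95% interval -0.64 to -0.12, adjusted p = 0.0782). Between the tumour groups it was -0.08 (95% interval -0.36 to 0.20). Igf1r has the longest exonic length of the axis, 16791 bases, and when each library's lowess trend over gene length and base composition was taken out (the length and GC correction, added after seeing the data) its log2 fold change in AKP against Ptch was -0.08 (adjusted p = 0.731). Without that correction edgeR called it in a fit of the AKP and Ptch groups alone (adjusted p = 0.0424) and without NKP 1 (0.0333).

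Igf2r (chromosome 17, 12682406 to 12769664), the clearing receptor of IGF2, was at 26.8, 26.9, 29.9 and 30.6 CPM in Ptch 1 to 4. NKP libraries 1 to 3 had 24.2, 27.7 and 32.5 CPM, and AKP libraries 1 to 3 had 22.0, 21.1 and 23.5 CPM. The 3 AKP libraries were the 3 lowest of all 10, whereas the NKP libraries spanned the Ptch range. The log2 fold change was -0.36 in AKP against Ptch (SE 0.116, 95% interval -0.61 to -0.11, edgeR adjusted p = 0.0782) and -0.34 in AKP against NKP (SE 0.124, 95% interval -0.61 to -0.08, adjusted p = 0.233). In NKP against Ptch it was -0.02 (95% interval -0.26 to 0.23). After the length and GC correction the AKP against Ptch value was -0.11 (adjusted p = 0.596).

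Among the binding protein genes, Igfbp7 was higher in the tumour libraries of both genotypes, and Igfbp5 split the tumour groups. Igfbp7 (chromosome 5, 77349240 to 77408041), which encodes a secreted protein of vessels that binds IGFs weakly, was at 21.2, 21.2, 21.2 and 22.3 CPM in Ptch 1 to 4. NKP libraries 1 to 3 had 28.8, 32.3 and 23.9 CPM, and AKP libraries 1 to 3 had 30.1, 27.7 and 27.4 CPM. The Ptch libraries were nearly level, and each of the 6 tumour libraries lay above them. The shares of all genes with groups so apart are given beside Igf1r. The log2 fold change was 0.40 in NKP against Ptch (SE 0.110, 95% interval 0.16 to 0.64, edgeR adjusted p = 0.218). It was 0.40 in AKP against Ptch (SE 0.111, 95% interval 0.16 to 0.64, adjusted p = 0.0508) and 0.00 in AKP against NKP (95% interval -0.25 to 0.26). For AKP against Ptch edgeR called Igfbp7 under 7 alternatives, among them RLE scaling (adjusted p = 0.0490) and upper quartile scaling (0.0356), but after the length and GC correction the fold change was 0.18 (adjusted p = 0.549). Its exons share 85 bases with Polr2b on the other strand.

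The summed levels of 4 of 12 marker lists were also higher in each tumour library than in each Ptch library: pericytes and mural cells, endothelium, oligodendrocytes, and meninges and fibroblasts. The 10 pericyte and mural genes summed to 168 to 234 CPM in Ptch, 253 to 329 in NKP and 249 to 299 in AKP, and 1 of the 10 rose in AKP against Ptch by edgeR (Tagln, log2 fold change 1.1, adjusted p = 0.0315). The 10 endothelial genes summed to 153 to 207 CPM in Ptch, 227 to 274 in NKP and 223 to 265 in AKP, and again 1 of 10 rose (Ly6c1, 0.69, adjusted p = 0.0209). The 10 oligodendrocyte genes summed to 6220 to 7590 CPM in Ptch, 7800 to 12600 in NKP and 9090 to 11400 in AKP, with all 10 above 0 in both comparisons with Ptch and 1 called in AKP (Mobp, 0.56, edgeR adjusted p = 0.0382). In NKP against Ptch all 10 genes were also above 0 in the meningeal, endothelial, Purkinje cell, cerebellar interneuron and mature granule neuron lists. The meningeal sums are those given beside Igf2, and 0 of these 10 genes were called in AKP against Ptch. Over all genes, edgeR called 3.38% higher in that comparison. A single gene was also called higher among the 10 cerebellar interneuron genes, of which 8 lay below 0. No gene of the 4 lists with higher sums was at 0 counts in any library, and the part of these lists in the level of Igfbp7 was not tested.

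**Figure D2:**
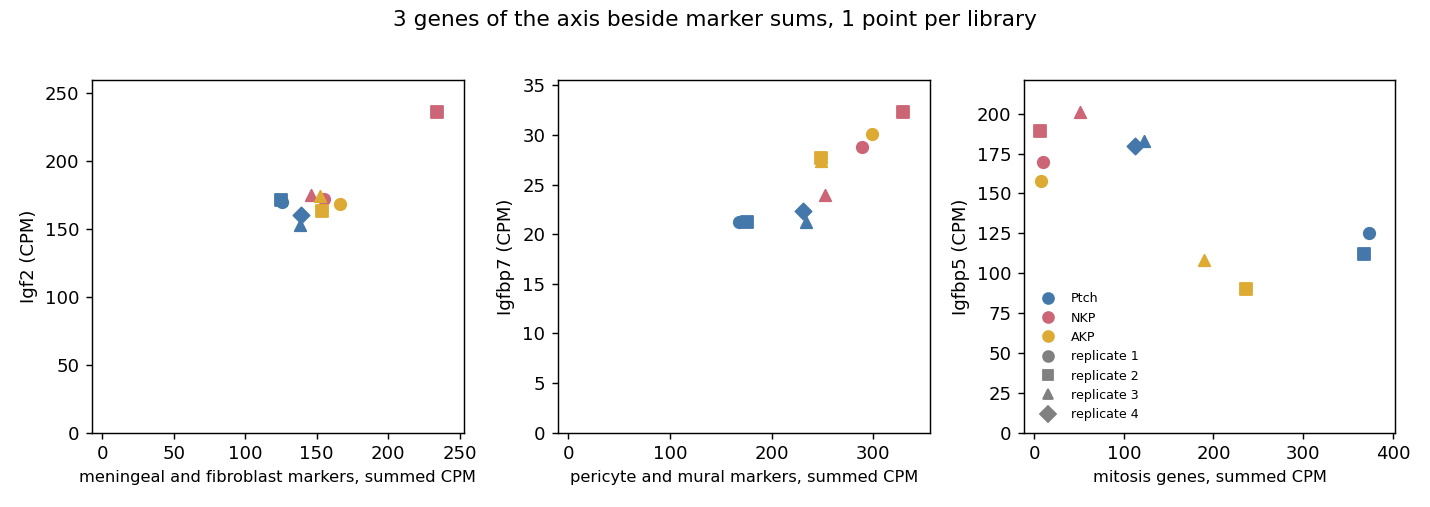
Igf2, Igfbp7 and Igfbp5 in CPM (vertical axes) against the summed CPM of meningeal, pericyte and mitosis genes (horizontal axes), 1 point per library, with colours for groups and shapes for replicate numbers. NKP 2 is highest in both Igf2 (236 CPM) and the meningeal sum (234 CPM), and the 4 libraries with a mitosis sum of 189 CPM or more have the 4 lowest levels of Igfbp5. Other marker sums set the same 4 libraries apart, and the part of none was tested.

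Igfbp5 (chromosome 1, 72857932 to 72874884), whose protein binds the extracellular matrix as well as IGFs, was at 125, 112, 183 and 180 CPM in Ptch 1 to 4. NKP libraries 1 to 3 had 170, 189 and 201 CPM, and AKP libraries 1 to 3 had 158, 89.9 and 108 CPM. The low libraries were Ptch 1, Ptch 2, AKP 2 and AKP 3, the same 4 that had the highest mitosis sums. These 4 also had the lowest sums of mature granule neuron genes (3130 to 3990 CPM) and Purkinje cell genes (6300 to 7070 CPM). Their sums of microglia and macrophage genes (367 to 499 CPM) and granule neuron precursor genes (424 to 721 CPM) were the highest. The part of these sums and of the mitosis sums in the Igfbp5 level was not tested. The 3 AKP libraries lay below the 3 NKP libraries, with a log2 fold change of -0.65 (SE 0.236, 95% interval -1.18 to -0.13, edgeR adjusted p = 0.244). It was called without AKP 1 (-0.92, edgeR adjusted p = 0.0315) and, with all libraries, by DESeq2 (-0.65, adjusted p = 0.036), and over the alternatives the adjusted p ran from 0.0315 to 0.86. Against Ptch the fold change was 0.32 in NKP (95% interval -0.17 to 0.80) and -0.34 in AKP (-0.83 to 0.16). Within Ptch the 2 libraries of 4 months were the low ones. They are also the pair without Y-linked expression, so age cannot be told apart from other traits of the pair. With age as a covariate the values against Ptch were 0.57 in NKP (edgeR adjusted p = 0.0927) and -0.38 in AKP (adjusted p = 0.196).

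Igfbp2 (chromosome 1, 72824503 to 72852474), whose protein favours IGF2 and is made by glia, meninges and choroid plexus, lies next to Igfbp5 in the opposite orientation. It was at 65.7, 71.1, 100 and 107 CPM in Ptch 1 to 4, at 94.9, 147 and 109 CPM in the NKP libraries 1 to 3 and at 104, 135 and 120 CPM in the AKP libraries 1 to 3. Ptch 1 and Ptch 2 were the lowest libraries and NKP 2 the highest. NKP 1 lay below Ptch 3 and Ptch 4, and AKP 1 lay between them. The log2 fold change was 0.44 in NKP against Ptch (SE 0.197, edgeR adjusted p = 0.287) and 0.48 in AKP against Ptch (SE 0.197, adjusted p = 0.164). Between the tumour groups it was 0.03 (95% interval -0.44 to 0.50). Ptch 1 and Ptch 2 were also the Ptch libraries of 4 months, those with the highest mitosis sums, and the only libraries of the 10 without Y-linked expression. With age as a covariate the values against Ptch were 0.64 for NKP (edgeR adjusted p = 0.0736) and 0.45 for AKP (adjusted p = 0.13), and the part of the mitosis sums was not tested. Without NKP 2 the NKP against Ptch value was 0.25 (edgeR adjusted p = 0.653), and after the length and GC correction the AKP against Ptch value was 0.26 (adjusted p = 0.664).

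Igfbp3 (chromosome 11, 7206086 to 7213923), the main carrier of IGFs in blood, and Igfbp4 (chromosome 11, 99041244 to 99054392), which blocks IGF action until it is cleaved, had the smallest differences between group means over the 3 comparisons. Igfbp3 was at 19.7 ± 1.21 CPM (SD, n = 4) in Ptch, 20.3 ± 1.28 (SD, n = 3) in NKP and 20.3 ± 3.9 (SD, n = 3) in AKP. Igfbp4 was at 22.9 ± 3 CPM (SD, n = 4) in Ptch, 22.2 ± 1.84 (SD, n = 3) in NKP and 23.0 ± 6.02 (SD, n = 3) in AKP. In both genes AKP 2 was the highest of the 10 libraries, at 24.2 and 29.7 CPM. Their log2 fold changes lay between -0.04 and 0.05 in the 3 comparisons, and the widest 95% interval, that of Igfbp4 in AKP against NKP, ran from -0.33 to 0.42.

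Igf2bp3 (chromosome 6, 49085223 to 49214957) encodes a fetal RNA-binding protein that binds Igf2 transcripts among others. It had 6, 3, 1 and 0 counts in Ptch 1 to 4, 0, 0 and 1 in the NKP libraries and 1, 3 and 1 in the AKP libraries, or 16 counts in all 10 libraries together. The gene was near the limit of detection in each group and was not tested. It shares 1529 exonic bases with Malsu1 on the other strand, and without strand these few reads cannot be assigned to either gene with certainty.

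**Figure D3:**
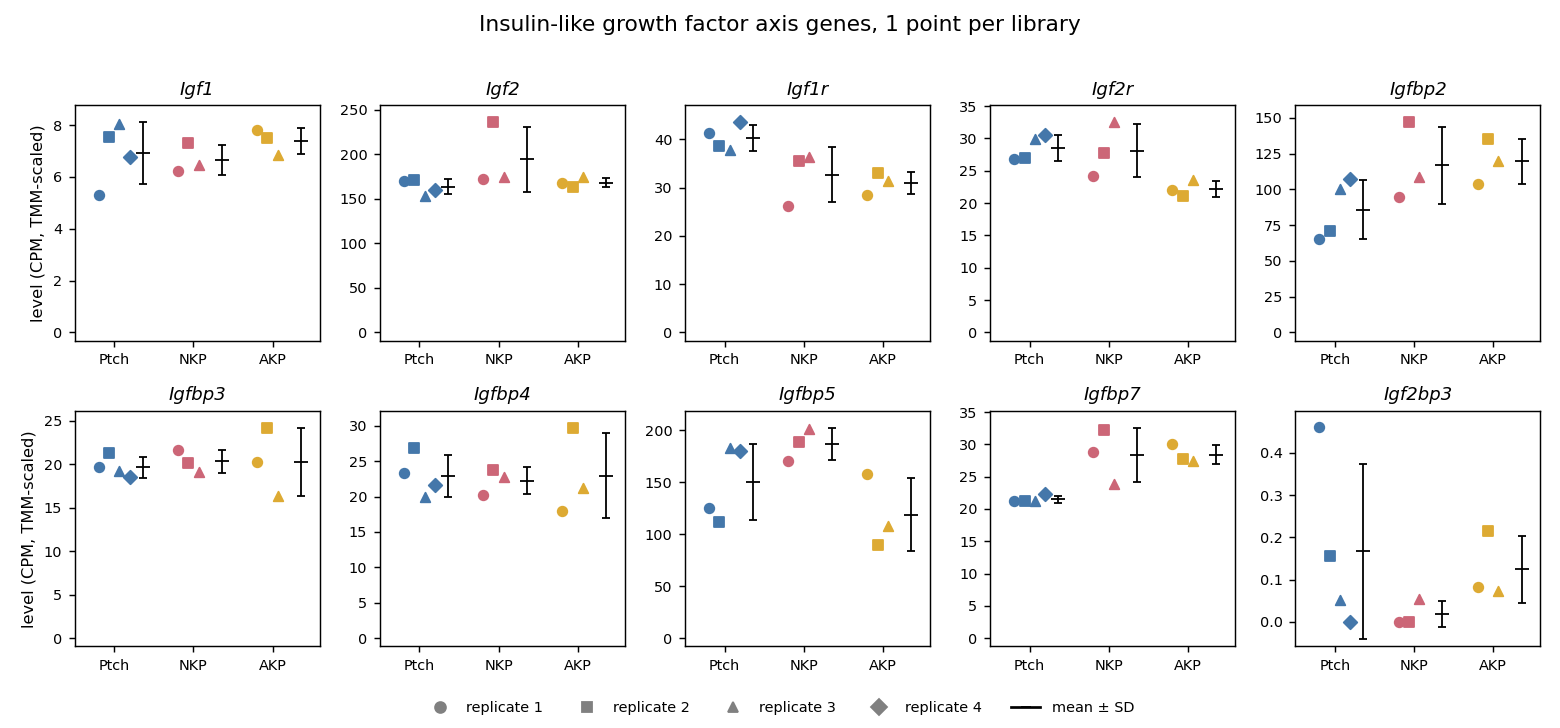
Levels of the 10 genes in TMM-scaled CPM, 1 point per library with shapes for replicate numbers, and the mean with SD at the right of each group. Igf1r is lower and Igfbp7 higher in each of the 6 tumour libraries than in the 4 Ptch libraries, and the Igf2 level of NKP 2 (236 CPM) stands above the other 9.

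Igf1r and Igfbp7 were thus the members in which both tumour groups were apart from Ptch, in opposite directions. The share of all genes apart from Ptch in both tumour groups was not counted, so these 2 of 9 have no background beside them. Counted by groups that did not overlap, 2 of 9 members were higher (Igf2 and Igfbp7) and 1 was lower (Igf1r) in NKP against Ptch, beside 6.96% and 8.95% of all genes, or 15.9% in either direction. For AKP against Ptch 1 of 9 was higher (Igfbp7) and 2 were lower (Igf1r and Igf2r), beside 12.9% and 12% of all genes, or 24.8% in either direction. For AKP against NKP 0 of 9 were higher and 2 were lower (Igf2r and Igfbp5), beside 6.69% and 9.52% of all genes, or 16.2% in either direction. With those 4 libraries of doubtful sex label left out, the log2 fold changes in AKP against Ptch were -0.41 for Igf1r, -0.41 for Igf2r and 0.42 for Igfbp7 (edgeR adjusted p = 0.477, 0.444 and 0.418). In NKP against Ptch they were -0.42 for Igf1r, 0.30 for Igf2 and 0.49 for Igfbp7 (adjusted p = 0.535, 0.581 and 0.533). Both comparisons with Ptch use the same 4 Ptch libraries and so are not independent of each other.

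**Figure D4:**
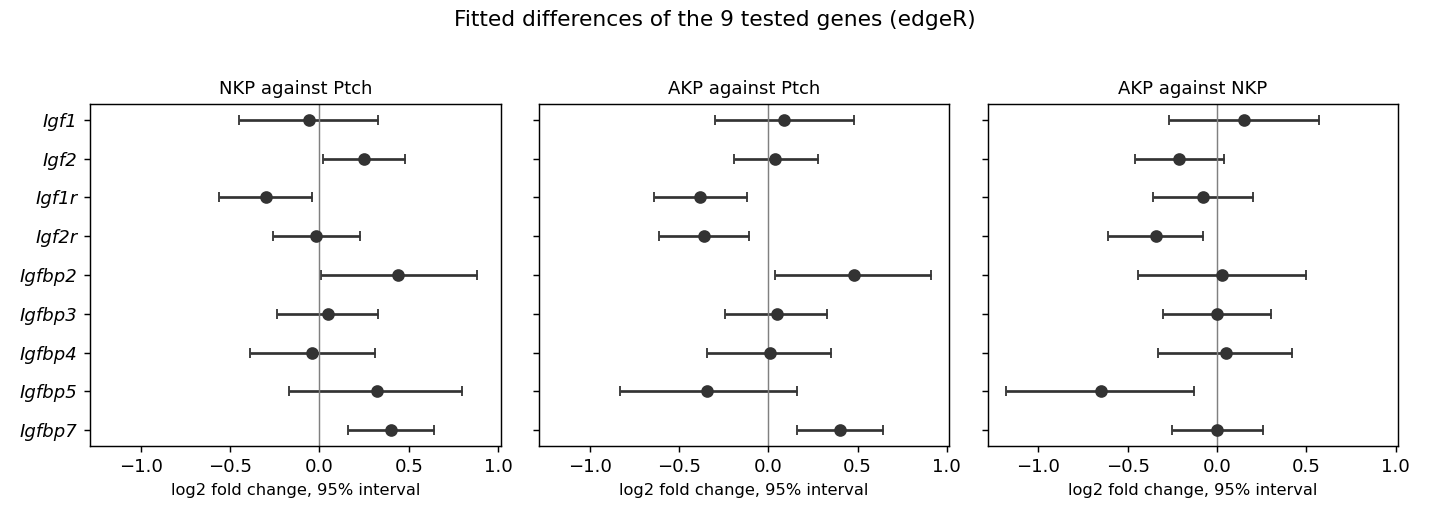
Fitted log2 fold changes of the 9 tested genes with 95% intervals (horizontal axis) in the 3 comparisons. The interval of Igfbp7 runs from 0.16 to 0.64 against Ptch in both tumour groups, and those of Igf1, Igfbp3 and Igfbp4 include 0 throughout.

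The spread of the members over all 10 libraries was close to that of other genes. The coefficient of variation ran from 10.4% (Igfbp3) to 26.1% (Igfbp5) among the 9 tested, beside a median of 16.6% over all genes tested. Igfbp5 and Igfbp2 (24%) were the most variable, with a smaller value in 73.4% and 69.7% of all tested genes. The levels of Igfbp5 were most like those of Gnal, Lsamp and Tanc1 (Pearson correlations of log2 CPM of 0.99, 0.99 and 0.98 over 10 libraries), out of 11059 genes compared. Igf2r was most like Shank1, Ryr2 and Fry (0.98, 0.97 and 0.97), and Igf1r like Tardbp, Zc3hav1 and Rnf20 (0.98, 0.95 and 0.95). Igfbp7 was most like Sar1b, Dnaja2 and Lpar1 (0.95 each), Igfbp2 like Perp, Alpl and Stk39 (0.96, 0.95 and 0.95), and Igf2 like Uaca, Bgn and St13 (0.94, 0.92 and 0.88). For Igf2 the Spearman correlations with these 3 were lower, at 0.65, 0.70 and 0.42. Igfbp4 was most like Nucks1, Reep1 and Mesd (0.91, 0.88 and 0.88), Igfbp3 like Prss36, Sike1 and Tmem128 (0.88, 0.86 and 0.85), and Igf1 like Renbp, Ccni and Armt1 (0.88, 0.80 and 0.79). All of these describe the same 10 libraries, whose group, age and cell makeup the genes share, and each is the highest of many.

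The rest of the pathway was read through 41 further genes, from carriers and proteases through insulin receptor substrates to AKT, mTOR and FOXO factors, of which 36 were tested. In AKP against Ptch 2 of 36 rose (Igfbp6 and Htra1) and 2 fell (Tsc2 and Foxo3) by edgeR, beside 3.38% of all genes called higher and 2.3% called lower. Of the 36, 26 lay below 0, with a median log2 fold change of -0.17. By edgeR 14 of 36 had an unadjusted p below 0.05, beside 25.1% of all genes. DESeq2 called 8 of the 31 to which it gave an adjusted p, beside 15.1% of all genes. Igfbp6 (chromosome 15, 102144362 to 102149511), a binding protein that prefers IGF2, was at 20.3, 20.4, 26.0 and 23.3 CPM in Ptch 1 to 4. NKP libraries 1 to 3 had 32.8, 34.9 and 25.1 CPM, and AKP libraries 1 to 3 had 38.2, 44.0 and 36.6 CPM. The AKP libraries were the 3 highest of all 10, with a log2 fold change of 0.81 (SE 0.133, edgeR adjusted p = 0.0209) against Ptch. In NKP against Ptch it was 0.46 (SE 0.134, adjusted p = 0.218), and NKP 3 lay within the Ptch range.

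Htra1, a secreted protease that can cleave IGF-binding proteins, averaged 240 ± 18.3 CPM in the 3 AKP libraries and 182 ± 14.3 CPM in the 4 Ptch libraries, each ± SD (log2 fold change 0.40, SE 0.0935, edgeR adjusted p = 0.0327). Tsc2, a brake on mTOR, averaged 60.7 ± 4.25 CPM in AKP (SD, n = 3) against 78.2 ± 2.74 CPM in Ptch (SD, n = 4) (log2 fold change -0.37, SE 0.0865, adjusted p = 0.0335). Foxo3, a transcription factor that AKT keeps out of the nucleus, averaged 87.7 ± 11.4 CPM in AKP (SD, n = 3) against 115 ± 6.92 CPM in Ptch (SD, n = 4) (log2 fold change -0.39, SE 0.0945, adjusted p = 0.0373). For each of these 4 genes the AKP and Ptch libraries did not overlap, as in 24.8% of all genes tested. The 4 were named for passing the threshold in the same libraries, so the lack of overlap is not separate support. The count of 4 became 0 without Ptch 1, Ptch 2, AKP 2 or AKP 3 and 1 without Ptch 3 or Ptch 4, and was 7 without NKP 1. With 1 library left out the log2 fold changes ran from 0.73 to 0.89 for Igfbp6, 0.34 to 0.45 for Htra1, -0.40 to -0.31 for Tsc2 and -0.49 to -0.30 for Foxo3. The count was also 0 with a replicate block, with the Y-linked covariate, without the 4 libraries of doubtful sex label and after the length and GC correction, where Igfbp6 had 0.56 (adjusted p = 0.0986) and Tsc2 and Foxo3 -0.16 and -0.17. The sums of the 4 marker lists given beside Igfbp7 were higher in AKP than in Ptch too, and their part in these values was not tested.

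In the other comparisons edgeR called 0 of the 36 pathway genes. In NKP against Ptch 9 of 36 had an unadjusted p below 0.05, beside 17% of all genes, and DESeq2 called 3 of the 35 with an adjusted p, beside 2.65% of all genes. Those with the smallest p were Htra1 (log2 fold change 0.33, edgeR adjusted p = 0.218), Igfbp6 and Irs1. Irs1, an adaptor that links the receptor to PI3K, averaged 28.5 ± 4.72 CPM in NKP (SD, n = 3) against 48.4 ± 10.9 CPM in Ptch (SD, n = 4) (log2 fold change -0.76, SE 0.221, edgeR adjusted p = 0.218). Ptch 1 and Ptch 2, with the highest mitosis sums, were at 54.9 and 60.2 CPM, and Ptch 3 and Ptch 4 at 38 and 40.4 CPM. The AKP libraries 1 to 3 had 24.2, 41.4 and 41.3 CPM. The part of the mitosis sums was not tested. Of the same 36 genes, 9 in AKP against NKP had an unadjusted p below 0.05, beside 16.9% of all genes, and DESeq2 called 1 of the 11 with an adjusted p, beside 9.6% of all genes. Those with the smallest p were Foxo3 (-0.33), Mtor (-0.27) and Pdpk1 (-0.30), each with an edgeR adjusted p of 0.228.

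**Figure D5:**
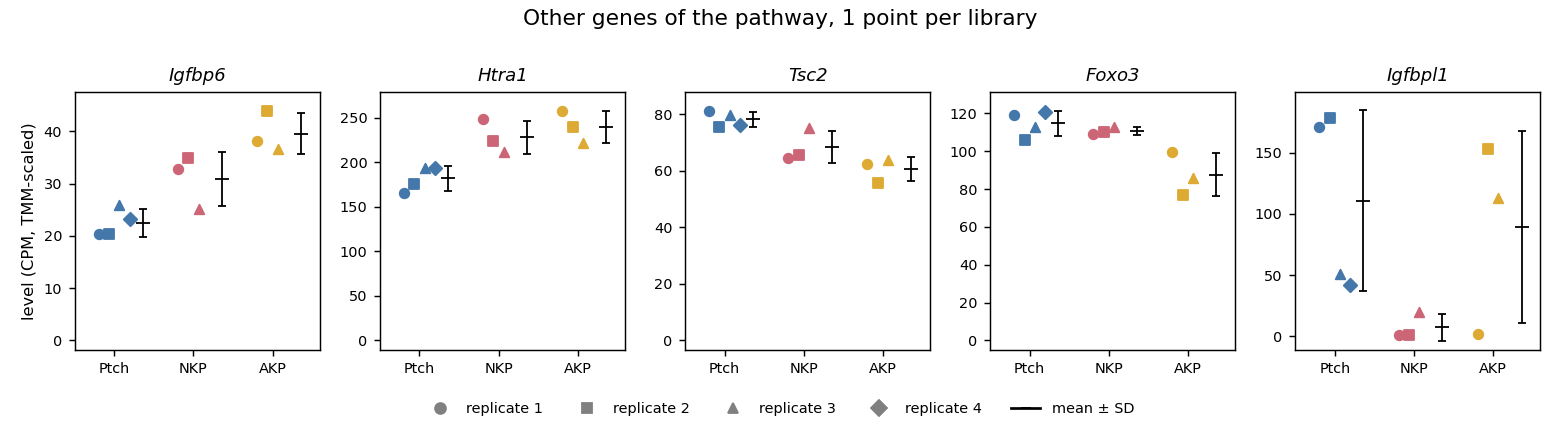
Levels of Igfbp6, Htra1, Tsc2, Foxo3 and Igfbpl1 in TMM-scaled CPM, 1 point per library with the mean and SD at the right of each group. The AKP libraries are the 3 highest in Igfbp6 (36.6 to 44.0 CPM), and Igfbpl1 ranges from 0.884 CPM in NKP 2 to 178 CPM in Ptch 2.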

How the data were processed

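Per the labels' protocols, libraries of poly-A RNA were made with a TruSeq kit, which keeps no strand. Trim Galore, STAR and RSEM were used with GRCm38, per the submitters' processing notes, with no versions given there. Values in the deposited table are whole numbers with unequal totals. Each deposited value was taken for an expected count of RSEM that the authors had rounded, so rounding here changed nothing. RSEM divides reads among overlapping genes by estimation. Genes were kept by edgeR's filterByExpr (15617 genes), scaled by TMM and tested by edgeR 4.0.16 (R 4.3.3) with the quasi-likelihood F test, robust dispersion, all 10 libraries in 1 fit without covariates, and Benjamini-Hochberg adjustment over all genes at 0.05. SEs are the fold change divided by the square root of F. DESeq2 1.42.0 was an alternative, with other scalings and filters, age, 2-group fits, a replicate block and each library left out. Added after seeing the data were Y-linked expression as a covariate, omission of 4 libraries against their sex label, and a lowess correction (span 0.3) for transcript length and GC content, known for 95.6% of tested genes. The fit was also run on simulated counts drawn independently for each library, so that run does not cover libraries that are not independent. All 10 symbols matched GENCODE vM21 (GRCm38).

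All members were named in each comparison. Of the other pathway genes, those past the threshold were named, or the 3 with the smallest p, and for each member the 3 genes with the highest Pearson correlation among those with a mean count of at least 100. The members and lists were chosen with earlier results of these data known. Low-count precision is limited by depth, and intervals cover the spread between libraries.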

Additional observations from a re-analysis of the deposited data

Results flagged for a closer look

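Igfbp7 in the Ptch group had 1 library apart from the other 3: Ptch 4 was at 22.3 CPM and the others at 21.2 CPM each, a gap of 0.935 of the group's range. The group's whole range is small beside the tumour libraries (23.9 to 32.3 CPM). All 10 genes were examined in this way in the Ptch group, and chance alone sets apart about 1 group in 20 at this level.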

How the results depend on the processing

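Over 21 alternatives (3 of them added after seeing the data), no member was called in NKP against Ptch. In AKP against Ptch, where edgeR called 0, 1 member was called with RLE or upper quartile scaling or a minimum of 10 counts in every library, 2 in a fit of only the 2 groups, 3 by DESeq2 and 0 to 2 with 1 library left out. In AKP against NKP 1 was called by DESeq2 (0 otherwise) and 0 to 1 with 1 library left out (1 without AKP 1). The cause was not tested. Over all genes, NKP against Ptch (0 called) gave 933 with age as a covariate and 410 by DESeq2. AKP against Ptch (887) gave 1859 by DESeq2, 0 with the replicate block, 0 when the 4 libraries that went against their sex label were dropped, 3 with the Y-linked covariate, 16 after the length and GC correction and 0 to 1459 with 1 library left out: leaving out AKP 3 gave 0, AKP 2 gave 1, Ptch 1 gave 1, Ptch 2 gave 1, Ptch 4 gave 183, Ptch 3 gave 321, NKP 2 gave 553 and AKP 1 gave 1459. AKP against NKP (1) gave 234 by DESeq2, 0 with age, with the replicate block, with only the 2 groups or without the 4 libraries, and 0 to 1364 with 1 library left out (1364 without AKP 1). Of the other pathway genes, NKP against Ptch (0) gave 4 with age and 3 by DESeq2. AKP against Ptch (4) gave 8 by DESeq2, 0 with the replicate block, without the 4 libraries, with the Y-linked covariate or the length and GC correction, and 0 to 7 with 1 library left out. AKP against NKP (0) gave 1 by DESeq2 and 0 to 3 with 1 library left out. The replicate block is not a pairing by design: same-numbered libraries had deviations from the group means that correlated from -0.33 to 0.34, and it changed no member's call.

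Signs turned only for members near 0. In NKP against Ptch, Igf1 was 0.04 with age, Igf2r 0.01 with age and with the block and 0.05 after the length and GC correction, and Igfbp4 0.11 with Y-linked expression; with 1 library left out these ran from -0.17 to 0.02, -0.13 to 0.08 and -0.10 to 0.05. In AKP against Ptch, Igf1 was -0.01 with Y-linked expression, Igfbp3 -0.02 after the correction, and Igfbp4 -0.04 with the block and -0.01 without the 4 libraries; with 1 library left out these ran from -0.01 to 0.17, -0.10 to 0.18 and -0.22 to 0.15. In AKP against NKP, Igf1r was 0.01 without the 4 libraries and 0.15 after the correction, and Igfbp2 was -0.19 with age, -0.01 without the 4 libraries and -0.20 after the correction; with 1 library left out Igf1r ran from -0.21 to 0.02, Igfbp2 from -0.10 to 0.23 and Igfbp4 from -0.18 to 0.19. The Y-linked covariate sets only Ptch 1 and Ptch 2 apart from the rest, so it takes that pair out of the comparisons with Ptch. All NKP libraries have the same age, so the age covariate rests on differences within Ptch and within AKP. In Ptch these ages split the libraries into the same pairs, so age cannot be told apart from other traits of the pairs. Depth limits Igf2bp3, with 16 counts in all.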

Other observations

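Igfbpl1, an IGF-binding-protein-like gene of immature neurons on chromosome 4 (45809468 to 45826923), belonged to the pathway list and is singled out here after its values were seen. It was at 171, 178, 51.1 and 42.2 CPM in Ptch 1 to 4, at 1.39, 0.884 and 20.1 CPM in the NKP libraries 1 to 3 and at 1.73, 153 and 113 CPM in the AKP libraries 1 to 3. NKP 1, NKP 2 and AKP 1 were thus the lowest libraries and Ptch 1 and Ptch 2 the highest. The granule neuron precursor markers summed to 171, 160 and 150 CPM in the first 3 libraries and to 695 and 721 CPM in Ptch 1 and Ptch 2, and their part in the Igfbpl1 level was not tested. Its log2 fold change was -3.83 in NKP against Ptch (SE 1.56, edgeR adjusted p = 0.278) and -0.31 in AKP against Ptch (SE 1.29, adjusted p = 0.916).

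H19, the imprinted neighbour of Igf2, is also given after its values were seen. It was at 3.99 to 4.65 CPM in the Ptch libraries, 5.20 to 6.30 in NKP and 4.93 to 6.12 in AKP. Both tumour groups lay above the Ptch libraries, as did 6.96% of all genes tested for NKP and 12.9% for AKP, each comparison taken alone. Neither difference passed (log2 fold change 0.38 in NKP and 0.36 in AKP, edgeR adjusted p = 0.305 and 0.244). Igf2 itself differed by 0.25 and 0.04 in the same comparisons.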
